A study of Mus musculus with 6 samples.

Results

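The regions described here are the promoter peaks of a chromatin immunoprecipitation sequencing (ChIP-seq) study of hnRNP UL1, namely the peak points that the authors' annotation places within 1 kb of a transcription start of a named gene. They were chosen by that annotation class and the presence of a gene name, and number 4019 of the 18624 complete rows of the 3 peak tables. They made up 1983 of 8425 rows at 0 h, 1797 of 9046 rows at 4 h and 239 of 1153 rows at 10 h. All libraries came from RAW 264.7, an established mouse macrophage-like cell line, with chromatin cut enzymatically and precipitated with an antibody to hnRNP UL1. The 3 ChIP samples were untreated cells (0 h), cells given lipopolysaccharide (LPS, a component of the outer membrane of Gram-negative bacteria) at 100 ng/ml for 4 h, and cells given the same dose for 10 h. Each time has 1 ChIP library, so no difference between times has a replicate check and no test was made. The matching input samples were not analysed here.

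hnRNP UL1 is a nuclear RNA-binding protein related to hnRNP U, and such proteins can reach chromatin through nascent transcripts and protein partners. In macrophages LPS is sensed by the receptor TLR4, which activates NF-kB and, through type I interferon, a second wave of antiviral genes. Many mammalian promoters, above all those of broadly expressed genes, lie in CpG islands, stretches rich in G, C and the CpG dinucleotide.

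The tables hold peaks as points 2 bp wide with no height, read depth or score, so a promoter here either has a point (called occupied) or has none. The depth of the libraries is unknown, and a missing point cannot be told apart from a point under the peak caller's threshold. The 10 h and 4 h tables, ordered by gene identifier, end before the 0 h table does. Times were therefore compared only over the gene identifiers that all 3 tables cover (the common range), or, for 4 h against 0 h, over the larger stretch that these 2 tables cover (the longer range). In the common range the promoter points numbered 452 at 408 genes at 0 h, 1060 at 838 genes at 4 h and 239 at 224 genes at 10 h. In the longer range there were 1796 points at 1411 genes at 4 h, against 743 points at 662 genes at 0 h. Shares are given with exact 95% intervals (Clopper-Pearson). These reflect counting error alone, and neighbouring points are not independent.

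The following 7 start windows show what occupied promoters look like at the base level. Each runs from 250 bases before to 50 bases after a RefSeq start (GRCm38.p6), 5′ to 3′ on the gene's strand, and capitals mark the 10 bases on either side of a deposited peak point. They were taken from the genes with points at all 3 times and from members of the gene lists, because a point falls inside the window. Rel encodes the NF-kB subunit c-Rel (chr11:23770920-23771219, minus strand, 4 h point). Nfkb2 encodes the NF-kB precursor p100 (chr19:46305445-46305744, plus strand, 0 h point). Timm22 encodes a channel of the mitochondrial inner membrane translocase (chr11:76406893-76407192, plus strand, adjoining 0 h and 4 h points). Psmc6 encodes an ATPase of the proteasome (chr14:45329574-45329873, plus strand, the 0 h point first and the 4 h point after it). Tsen15 encodes a subunit of the tRNA splicing endonuclease (chr1:152386633-152386932, minus strand, the 10 h point first and the 4 h point after it). Taf15 encodes an RNA-binding protein of the FET family (chr11:83472858-83473157, plus strand, 4 h point). Hnrnpf encodes hnRNP F, a splicing regulator (chr6:117917044-117917343, plus strand, 0 h point).
Rel: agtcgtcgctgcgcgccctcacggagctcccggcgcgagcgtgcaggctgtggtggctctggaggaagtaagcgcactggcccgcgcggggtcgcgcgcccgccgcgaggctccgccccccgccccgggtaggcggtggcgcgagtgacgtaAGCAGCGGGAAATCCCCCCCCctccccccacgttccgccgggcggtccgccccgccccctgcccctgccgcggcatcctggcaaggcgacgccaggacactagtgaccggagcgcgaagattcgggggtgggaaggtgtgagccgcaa
Nfkb2: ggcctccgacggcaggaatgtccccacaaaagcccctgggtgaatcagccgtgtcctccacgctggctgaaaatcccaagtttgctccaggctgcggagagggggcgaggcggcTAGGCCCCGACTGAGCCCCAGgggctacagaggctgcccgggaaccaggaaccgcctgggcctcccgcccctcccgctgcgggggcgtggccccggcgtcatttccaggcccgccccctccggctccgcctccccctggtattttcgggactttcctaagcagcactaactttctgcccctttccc
Timm22: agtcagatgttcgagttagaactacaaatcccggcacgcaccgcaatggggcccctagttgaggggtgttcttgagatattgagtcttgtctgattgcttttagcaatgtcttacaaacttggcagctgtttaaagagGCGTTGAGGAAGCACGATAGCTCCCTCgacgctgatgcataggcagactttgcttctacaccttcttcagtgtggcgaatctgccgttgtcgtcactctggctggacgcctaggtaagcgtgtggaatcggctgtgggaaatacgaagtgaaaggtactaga
Psmc6: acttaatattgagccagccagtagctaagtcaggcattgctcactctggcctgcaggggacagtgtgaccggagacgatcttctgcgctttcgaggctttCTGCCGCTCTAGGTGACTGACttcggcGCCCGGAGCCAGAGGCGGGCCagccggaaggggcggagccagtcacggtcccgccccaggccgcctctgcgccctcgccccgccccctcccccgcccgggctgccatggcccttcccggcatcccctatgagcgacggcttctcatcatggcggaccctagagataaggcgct
Tsen15: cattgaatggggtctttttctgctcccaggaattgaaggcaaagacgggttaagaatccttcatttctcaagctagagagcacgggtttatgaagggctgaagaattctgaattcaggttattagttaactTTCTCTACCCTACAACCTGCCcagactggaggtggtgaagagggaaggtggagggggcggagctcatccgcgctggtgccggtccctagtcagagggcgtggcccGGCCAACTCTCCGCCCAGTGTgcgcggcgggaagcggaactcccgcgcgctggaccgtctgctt
Taf15: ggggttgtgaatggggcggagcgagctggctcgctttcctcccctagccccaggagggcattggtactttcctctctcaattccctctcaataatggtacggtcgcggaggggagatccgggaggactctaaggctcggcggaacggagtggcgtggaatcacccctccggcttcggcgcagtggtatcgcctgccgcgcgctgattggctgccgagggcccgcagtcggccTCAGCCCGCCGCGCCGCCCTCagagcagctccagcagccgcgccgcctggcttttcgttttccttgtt
Hnrnpf: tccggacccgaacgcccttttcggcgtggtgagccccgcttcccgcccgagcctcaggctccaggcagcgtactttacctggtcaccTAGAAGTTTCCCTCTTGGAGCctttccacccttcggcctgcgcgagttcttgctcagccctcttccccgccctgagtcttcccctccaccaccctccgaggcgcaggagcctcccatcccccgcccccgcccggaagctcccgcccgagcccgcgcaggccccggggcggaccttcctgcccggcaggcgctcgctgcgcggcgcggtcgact

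The windows ranged from 49.67% GC in Timm22 to 75% GC in Rel. The ratio of observed to expected CpG was 0.9957 in Rel, 0.9001 in Hnrnpf, 0.8967 in Taf15, 0.8272 in Timm22, 0.7339 in Psmc6, 0.7255 in Tsen15 and 0.5878 in Nfkb2. The GC box GGGCGG, read on both strands, occurs in each of them except Timm22, and TATAAA occurs in none of the 7. In the Rel window the 4 h point lies 88 bp before the RefSeq start, and a match to the NF-kB motif begins 92 bp before it, inside the capitals. A match is a description of the letters and does not show a bound site.

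Across the reference, start windows with a 0 h promoter point were richer in CpG than the other windows. Of protein-coding genes with a RefSeq window, 1441 windows had a 0 h promoter point of the same gene within 1 kb of their start, and 19822 did not. The median observed-to-expected CpG ratio was 0.8278 in occupied windows (quartiles 0.6745 and 0.9472), against 0.5302 in the others (0.2127 and 0.8107). A ratio of at least 0.6 was found in 82.65% of occupied windows (interval 80.6 to 84.57%), against 45.13% of the others (44.44 to 45.83%). Median GC content was 64.0% in occupied windows, against 56.0% in the others. Library coverage by base composition was not tested, because no coverage file was used here.

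**Figure D1:**
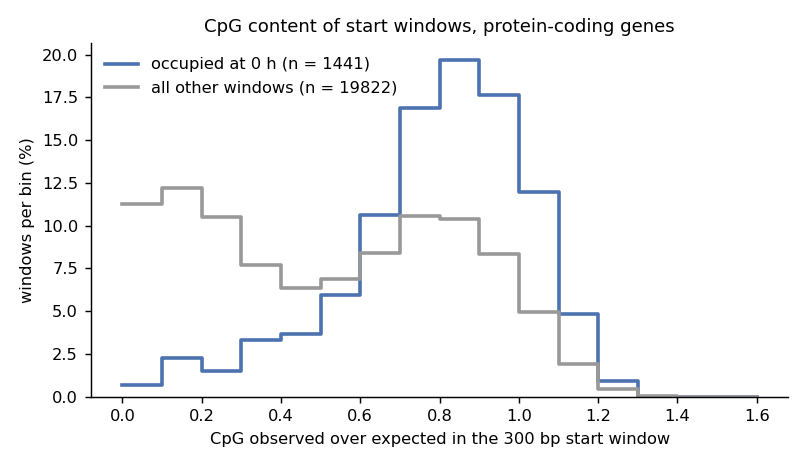
CpG observed over expected in 300 bp start windows of protein-coding genes, as the percentage of windows per bin of 0.1, for windows occupied at 0 h (blue) and all other windows (grey). The occupied windows have 1 peak around a median of 0.8278, while the others spread over low and high ratios with a median of 0.5302.

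Short motifs in the same windows differed in the same way, searched as exact letters on both strands. GGGCGG, the core of the GC box bound by Sp-family factors, was in 71.89% of windows occupied at 0 h, against 44.33% of the others and 46.2% of all windows. CCGGAAGT, a core bound by ETS-family factors, was in 9.785% of occupied windows, against 4.808% of the others. The core of the NRF1 motif was in 11.1% of occupied windows, against 6.034% of the others. The E-box CACGTG was in 11.17% of occupied windows, against 7.593% of the others. TATAAA, the core of the TATA box, was in 5.344% of occupied windows (4.24 to 6.634%), against 13.13% of the others (12.66 to 13.6%). CCAAT was in 32.55% of occupied windows, against 38.6% of the others. The NF-kB motif was in 12.07% of occupied windows (10.44 to 13.87%), against 9.046% of the others (8.65 to 9.453%). GC-rich words are expected more often in GC-rich windows, and the motifs were not compared at equal base composition. A start of another gene on the opposite strand lay within 1 kb of 21.72% of occupied windows (19.62 to 23.94%), against 15.11% of the others (14.62 to 15.62%).

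Between the times, windows occupied at 4 h were less often CpG-rich. In the common range a ratio of at least 0.6 was found in 85.5% of windows at 0 h (81.29 to 89.08%), 73.52% at 4 h (69.86 to 76.94%) and 83.44% at 10 h (76.54 to 88.99%). Windows of genes named in the same range, but with no promoter point within 1 kb at any time, had 55.43% (52.71 to 58.13%). They include windows of genes whose promoter points lay at other starts. Windows occupied at 4 h and not at 0 h had 70.8% (66.6 to 74.75%). This is above the figure of the unoccupied windows and below the 0 h figure, with no overlap of the intervals. The times share many promoters, so these shares are not independent of each other.

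Promoter points lay close to the start and mostly just downstream of it at 0 h, and spread further out at 4 h. The median signed distance in the common range was 52 bp downstream at 0 h, 41.5 bp at 4 h and 22 bp at 10 h. The quartiles of the distance were -124.2 and 179 bp at 0 h, -286.5 and 269.8 bp at 4 h and -175.5 and 227 bp at 10 h. Points within 200 bp of the start made up 57.74% at 0 h (53.04 to 62.34%), 38.4% at 4 h (35.46 to 41.4%) and 45.61% at 10 h (39.17 to 52.15%). The 4 h and 10 h intervals overlap each other, and both lie below the 0 h interval. The 100 bp just downstream of the start held 22.12% of the points at 0 h, 12.74% at 4 h and 13.81% at 10 h. Over the whole 0 h table the median was 44 bp downstream and 56.73% of 1983 points lay within 200 bp (54.52 to 58.93%).

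**Figure D2:**
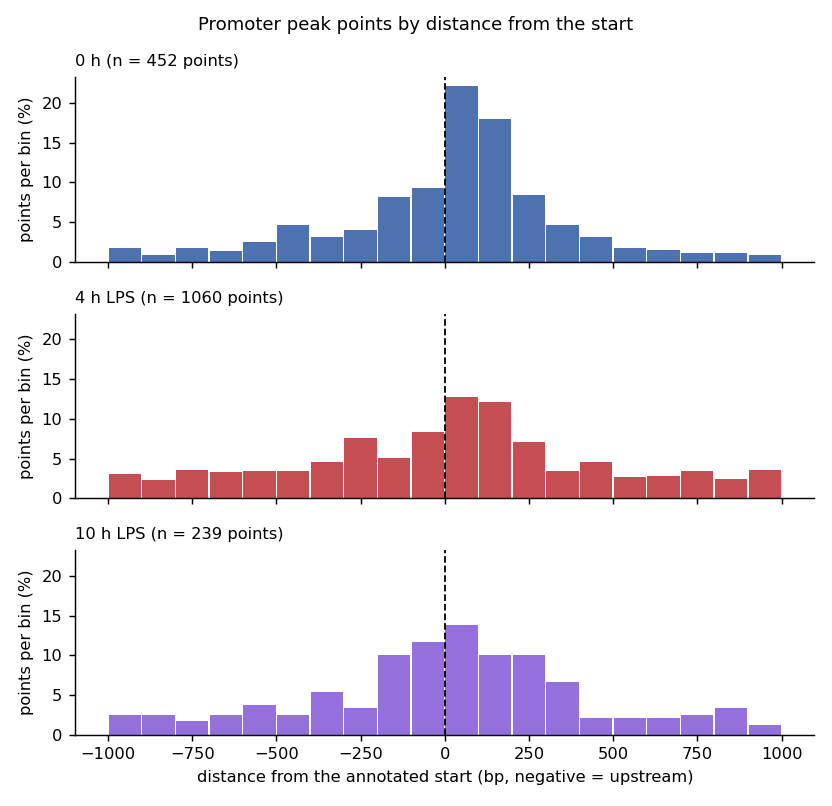
Promoter peak points by distance from the annotated start (bp, negative is upstream) in bins of 100 bp, as a percentage of the points of each time in the common range, with 452 points at 0 h, 1060 at 4 h and 239 at 10 h. The 0 h distribution is the most peaked, with 22.12% of points in the first 100 bp downstream, against 12.74% at 4 h and 13.81% at 10 h.

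The share near the start was also compared at promoters shared by both times. At genes with promoter points at both times, 43.53% of 4 h points lay within 200 bp (37.35 to 49.86%), against 50.93% of 0 h points (44.03 to 57.81%), and these intervals overlap. In the longer range, with more such genes, the shares were 43.76% at 4 h (38.99 to 48.63%), against 55.52% at 0 h (50.24 to 60.72%), and these intervals do not overlap. At the remaining genes of the common range the shares were 36.77% at 4 h (33.43 to 40.21%), against 63.87% at 0 h (57.41 to 69.97%). At the edge of the class the bin from 900 to 1000 bp held 12 points at 0 h, 71 at 4 h and 9 at 10 h, and the bin from 1000 to 1100 bp just outside held 11, 48 and 8. The farthest points inside lay at 999, 997 and 986 bp, and the nearest outside at 1014, 1001 and 1005 bp, at 0, 4 and 10 h.

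The excess of points at 4 h over 0 h was smaller in the promoter class than in the other classes. The common range held 2.345 times as many promoter points at 4 h as at 0 h, and 4.929 times as many points of all other classes together. The flanking classes, 1 to 2 kb and 2 to 3 kb from a start, had ratios of 5.194 and 5.408. At 10 h the ratio to 0 h was 0.5288 for promoter points and 1.056 for the other classes. Each ratio compares 1 library with 1 other, and more binding and more sensitive peak calling cannot be told apart.

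Most genes with a promoter point in the common range had one at a single time. In the common range 1134 genes had a promoter point at 1 or more times: 190 at 0 h only, 561 at 4 h only and 79 at 10 h only. A further 159 had points at 0 and 4 h, 27 at 0 and 10 h, 86 at 4 and 10 h, and 32 at all 3 times. As a background, of the 2097 genes named by a row of any class in this range, 19.5% had a promoter point at 0 h, 40.0% at 4 h and 10.7% at 10 h. The genes occupied at both 4 h and 0 h numbered 191. That is 22.79% of the 838 genes at 4 h, beside the 0 h background of 19.5%. It is 46.81% of the 408 genes at 0 h, beside the 4 h background of 40.0%. Those occupied at both 10 h and 4 h numbered 118. That is 52.68% of the 224 genes at 10 h, beside 40.0%, and 14.08% of those at 4 h, beside 10.7%. The unequal numbers of genes at the times limit how far they can overlap.

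**Figure D3:**
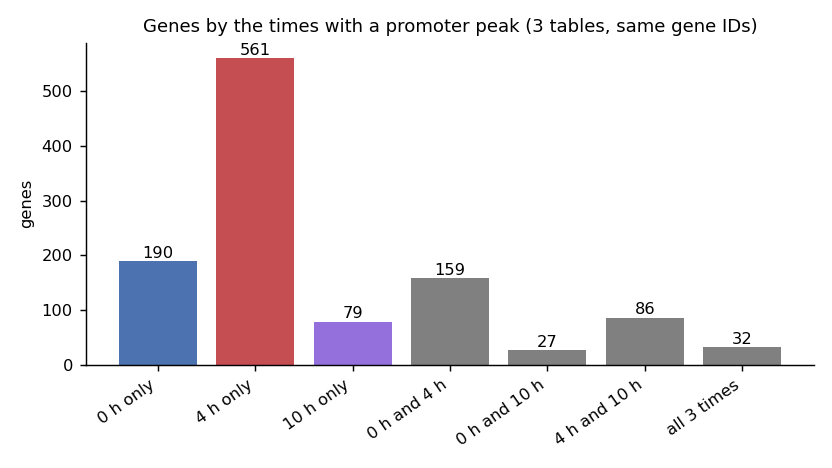
Number of genes of the common range by the times at which they have a promoter peak point, with single-time patterns in blue, red and purple and shared patterns in grey. The 4 h only pattern holds 561 of the 1134 genes, and 32 genes have points at all 3 times.

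Genes without a promoter point at one time differed in whether a row of another class named them, intergenic rows included. Of the 190 genes with a promoter point at 0 h only, 93 had a row of some other class at 4 h. Of the 561 genes with a promoter point at 4 h only, 103 had a row of some other class at 0 h. Rows of any class named 789 genes of the common range at 0 h and 1830 at 4 h. In the longer range 872 of the 1411 genes with a 4 h promoter point had no row of any class at 0 h. The reverse held for 161 of the 662 genes with a 0 h promoter point. Rows of any class named 3142 genes there at 4 h and 1322 at 0 h, of 3420 named at either time. Most genes named at 4 h thus lacked a 0 h row whatever the class.

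At shared promoters some points recurred at nearly the same base, while most of the closest points lay over 100 bp apart. In the 191 genes with promoter points at 4 h and 0 h, the closest points of the 2 times lay a median of 378 bp apart. They lay within 100 bp in 54 genes, within 500 bp in 113 genes and over 2000 bp apart in 39 genes, so that they belong to different annotated starts of the gene. The 4 h point was downstream of the 0 h point in 100 genes and upstream in 90. Of the promoter points in the common range, 11.7% at 4 h lay within 500 bp of a 0 h point of the same gene, and 26.77% at 0 h (22.74 to 31.11%) lay as near to a 4 h point. In the other classes these shares were 3.027% at 4 h and 14.69% at 0 h (12.38 to 17.23%). Promoter points of a gene are confined to 2 kb around its starts, so the classes are not on equal footing in this comparison. A 10 h promoter point lay within 500 bp of a 4 h point in 27.2% of cases (21.66 to 33.31%), against 17.88% in the other classes (15.44 to 20.53%). For 10 h points near 0 h points the shares were 14.23% in the promoter class (10.06 to 19.31%), against 6.402% in the other classes (4.897 to 8.197%). Read the other way, 7.522% of 0 h promoter points lay as near to a 10 h point (5.265 to 10.35%), against 7.226% in the other classes (5.585 to 9.168%), which is no difference beyond counting error. For 4 h points near 10 h points the shares were 6.887% in the promoter class (5.437 to 8.582%), against 4.304% in the other classes (3.712 to 4.959%).

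In the longer range the closest recurrences were within a few bases. Rad50, which encodes a subunit of the MRN complex that senses DNA breaks, had a 4 h point and a 0 h point at the same base, 448 bp downstream of its start. Dbnl, an actin-binding adaptor, had its points 1 bp apart, and Nfkb2 had points at -337 bp at 4 h and -335 bp at 0 h. Hdac4, a histone deacetylase, had points at -455 bp at 4 h and -452 bp at 0 h. Ifngr1, the ligand-binding chain of the interferon gamma receptor, had points at -471 bp at 4 h and -463 bp at 0 h, just outside the 10 closest genes. Gabpb1, a subunit of the ETS-family factor GABP, had points at -50 bp at 4 h and -44 bp at 0 h beside points at other starts. Mplkip, Ccdc116, Mmadhc, Timm22 and Psap complete the 10 closest, with distances from 4 to 7 bp.

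Among the 32 genes with points at all 3 times, the closest set of 3 points spanned a median of 765.5 bp. It spanned at most 100 bp in 4 genes, at most 500 bp in 13 and over 2000 bp in 11. Psap encodes prosaposin, the precursor of the saposins that help degrade sphingolipids in lysosomes. Its closest set lay 481 bp downstream of a start at 0 h, 474 bp at 4 h and 500 bp at 10 h, a span of 26 bp. Psap also had promoter points at -598 bp at 0 h and at 235 and -552 bp at 4 h. Hus1, a subunit of the 9-1-1 checkpoint clamp, had 1 point at each time, at 53, 84 and 79 bp. Arf4, a small GTPase of the Golgi, had points at 11 bp at 0 h, 0 bp at 4 h and -14 bp at 10 h, each from a different annotated start. Ctsb, the lysosomal protease cathepsin B, had its closest set at 905, 873 and 811 bp at 0, 4 and 10 h. It also had promoter points at 542 bp at 0 h and at -604 and 697 bp at 4 h. In these 4 genes the closest points of the 3 times lay within 94 bp of each other.

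**Figure D4:**
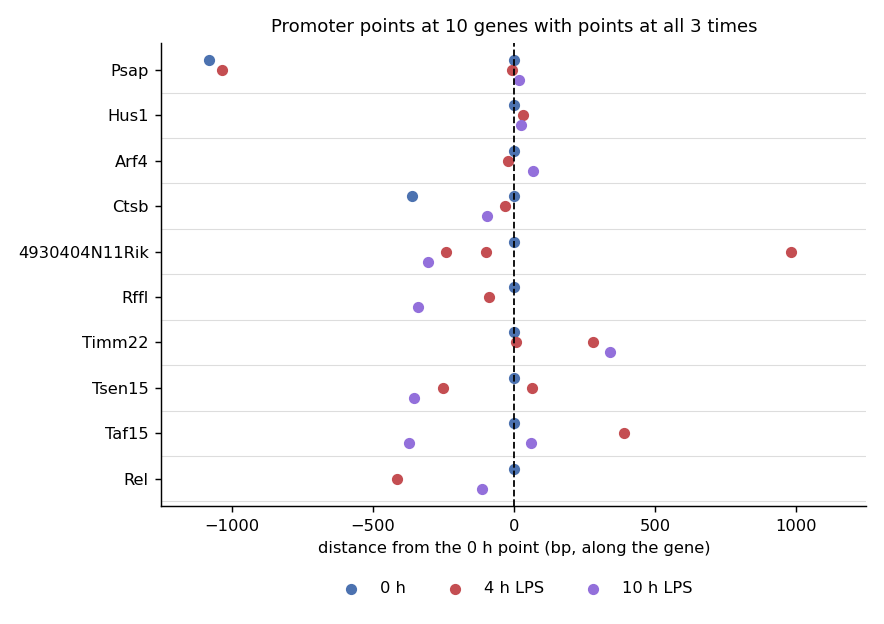
Promoter points at the 10 genes whose points of all 3 times lie closest together, by distance in bp along the gene from the 0 h point of the closest set, for 0 h (blue), 4 h (red) and 10 h (purple), with points beyond 1200 bp not drawn. In Psap, Hus1, Arf4 and Ctsb the closest set of the 3 times lies within 94 bp, and the spans of the closest sets of the other 6 genes run from 305 to 414 bp.

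Timm22 had a 4 h point 6 bp from its 0 h point, at 95 bp and 89 bp from the annotated start. A second 4 h point lay 281 bp along the gene from the 0 h point, and the 10 h point lay 340 bp along from it. Rel had single points at 326 bp at 0 h, -87 bp at 4 h and 213 bp at 10 h. Taf15 had points at -377 bp at 0 h, 8 bp at 4 h and -749 and -315 bp at 10 h. Tsen15 had points at 155 bp at 0 h, 218 and 1 bp at 4 h and -153 and -103 bp at 10 h. These distances, like those of genes named below, refer to the start the authors' annotation assigned to each point. That start need not be the RefSeq start of the windows printed above. Points of 1 gene can be assigned to different starts, so similar distances need not mean nearby points.

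Some genes held several promoter points. Among genes with a promoter point in the common range, 9.804% had 2 or more at 0 h (7.097 to 13.11%), 21.0% at 4 h (18.29 to 23.92%) and 5.804% at 10 h (3.126 to 9.72%). The points lay at several annotated starts in 30 of 40 such genes at 0 h, 140 of 176 at 4 h and 10 of 13 at 10 h. Neighbouring points at the same annotated start lay a median of 499.5 bp apart at 0 h (12 spacings), 612 bp at 4 h (63 spacings) and 517 bp at 10 h, where there were only 3 spacings. The highest number was 10, at Mx1 at 4 h. Mx1 encodes an interferon-induced GTPase with antiviral activity, on the minus strand of chromosome 16. Its 4 h promoter points ran over chr16:97452120-97463481 around 5 annotated starts, the closest pair 432 bp apart. Mx1 had no row of any class at 0 h, and 1 promoter point at 10 h, at -226 bp from a start.

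Cflar, an inhibitor of caspase-8, had 6 promoter points at 4 h around 4 annotated starts and none at 0 h. Caprin1 (an RNA-binding protein of stress granules) and Peli1 (a ubiquitin ligase of Toll-like receptor signalling) had 5 each at 4 h and none at 0 h. Scly, selenocysteine lyase, had 5 at 4 h and 2 at 0 h, and the kinase gene Sgk1 had 5 at 4 h and 1 at 0 h. Cers6 and Il15ra were also among the genes with most points at 4 h, with 4 each. Fam129b had 3 points at 4 h and 5 at 0 h, the highest number at 0 h. Hnrnpf, Tmcc1 and Nfe2l1 (a regulator of proteasome genes) had 4 each at 0 h and lie beyond the reach of the later tables. Arrdc3, Cyfip2, Dnmt3a, Fnip2, Gabpb1 and Ifitm10 complete the 10 genes of the 0 h rule with 3 each. Tnfaip3, the gene of the NF-kB inhibitor A20, and Ncor1, a transcriptional corepressor, had 3 each at 10 h. Actn1, Brpf1, Hcfc2, Mettl6, Mnt, Nln, Rdh12 and Slpi complete the rule's 10 genes with 2 each, and other genes had 2 as well.

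Among genes with no row at 0 h, Mx1, Caprin1, Cers6, Il15ra, Pdss1, Ralgds, Slco3a1, Atp6v1e1 and Bbc3 were among those with the most promoter points at 4 h. Il15ra, the alpha chain of the interleukin-15 receptor, had its 4 points at -15, 84, 494 and 657 bp, from 4 starts over 18122 bp. Bbc3, which encodes the apoptosis activator PUMA, had 3 points. Among genes with 0 h promoter points and no 4 h row, Rev1, a translesion DNA polymerase, had 3 points, at 22, 567 and -272 bp. Agpat2, Akirin1, Asf1a, Derl2, Eif3a, Esco1, Gramd1a, Igf1 and Ppp1cc had 2 each.

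Of the genes usually measured to follow an LPS response, few had a promoter point in these tables, the later of which end early. Tnf, Il1b, Il6, Ptgs2, Ccl2, Ccl5, Cxcl2, Cxcl10 and Ifnb1 had none in the tables, nor did Hnrnpul1 itself or the hepatocyte gene Alb. Il6 had 1 row of another class at 4 h. A gene whose identifier lies past the end of a later table could have no row there, so its absence from that table carries no information. For the genes without any row, it was not established here whether the later tables reach them. Nfkbia, which encodes the NF-kB inhibitor IkBa, had 2 points at 4 h, at -7 and 186 bp, and none at 0 or 10 h. Nos2, inducible nitric oxide synthase, had 1 point at 4 h and none at 0 or 10 h. The Nos2 point lay 87 bp upstream of an annotated start inside the RefSeq gene, not of the RefSeq start. Tnfaip3 had no promoter point at 0 h, 4 at 4 h (-102, 273, 274 and 640 bp) and 3 at 10 h (-931, -73 and 248 bp). The 4 h points lay around 2 starts over 6103 bp, and the 10 h points around 3 starts over 6209 bp. Spi1, the macrophage factor PU.1, had none at 0 h, points at -605 and 430 bp at 4 h and a point at 135 bp from a more distant start at 10 h. Actb had 1 point at 0 h, at 212 bp, and lies beyond the reach of the later tables.

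Gene lists were read against the background of all protein-coding genes of the reference, of which 8.00% (1752 of 21900) had a promoter point in the whole 0 h table. That background counts genes whether or not they are expressed in macrophages, so lists of broadly expressed genes can stand above it for that reason alone. Genes of RNA processing and chromatin had the highest shares. Of 57 hnRNP and splicing factor genes 22 had a 0 h promoter point (38.6%, 26 to 52.43%), and of 82 chromatin regulators 28 did (34.15%, 24.03 to 45.45%). The lysosome list had 18 of 60 (30.0%), translation factors 14 of 50 (28.0%), macrophage identity genes 10 of 37 (27.03%), housekeeping and glycolysis genes 9 of 35 (25.71%) and TLR4 and NF-kB signalling 11 of 45 (24.44%). Early LPS-induced genes had 10 of 48 (20.83%), DNA damage response and proteasome genes 7 of 40 each (17.5%) and ribosomal protein genes 13 of 81 (16.05%). RNA polymerase II and general transcription genes had 11 of 75 (14.67%), the interferon response 6 of 41 (14.63%), mitochondrial respiration 11 of 77 (14.29%), and cytokines, chemokines and receptors 7 of 50 (14.0%). Cell cycle genes had 5 of 52 (9.615%) and late LPS-induced genes 2 of 28 (7.143%), close to the background.

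The lists of other cell types are too short to be set apart from the background of 8.00% at 0 h. T and B cell genes had 1 of 20 (Lck), neuronal genes 1 of 20 (Camk2a) and hepatocyte genes 0 of 20, which allows a share of up to 16.84%. None of the 39 replication-dependent histone genes had a promoter point, which allows up to 9.025%. Each of these intervals includes the background. Peak points do not measure expression, so these counts do not test the labelled cell type.

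**Figure D5:**
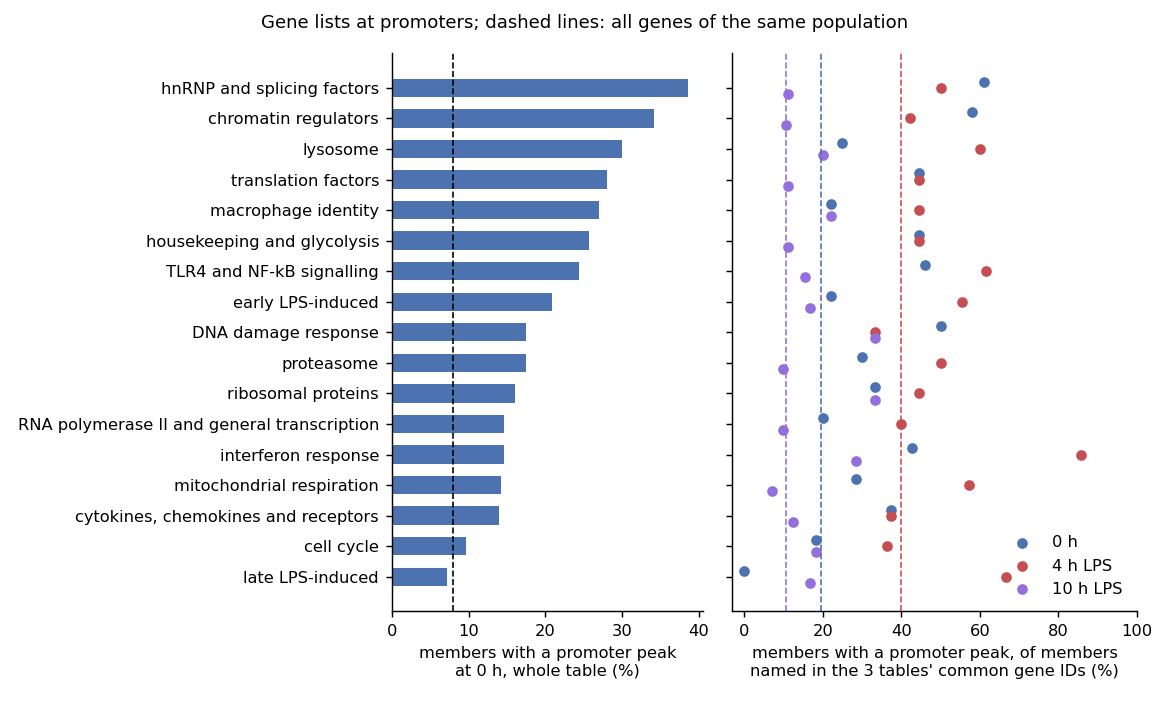
Percentage of the members of each gene list with a promoter peak point, on the left of all members at 0 h in the whole table, and on the right of members named by any row in the common range at 0 h (blue), 4 h (red) and 10 h (purple), for lists with at least 5 such members. Dashed lines give all genes of the same population (8.00% on the left; 19.5%, 40.0% and 10.7% on the right), and the hnRNP and chromatin lists are the top bars on the left.

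The hnRNP and splicing list had a high share at 0 h and shares nearer to those of all genes at 4 and 10 h. In the common range 18 of its members were named by a row of any time. Of these, 11 had a promoter point at 0 h, 9 at 4 h and 2 at 10 h. All genes so named had 19.5%, 40.0% and 10.7%, and the lists below were counted in the same way. Hnrnpd, hnRNP D or AUF1, had a 4 h point 24 bp downstream of its start and a 0 h point at the start itself. Hnrnpa2b1 had a 4 h point at 597 bp and a 0 h point at 357 bp. Ewsr1, a relative of Taf15, had 4 h points at -931 and 729 bp and a 0 h point at 22 bp. The Ewsr1 points lay at different starts, with the closest 4 h and 0 h points 17633 bp apart. Hnrnpk, Hnrnpl, Hnrnph1, Prpf8 and Srsf6 had a 4 h promoter point and none at 0 h. Hnrnpa0, Hnrnpab, Hnrnph3, Celf1, Mbnl2, Rbm25 and Snrpd1 had a 0 h promoter point and none at 4 h. The counts of members called at 4 h and not at 0 h (5) and at 0 h and not at 4 h (7) stand beside 30.9% and 10.3% of all genes. In the longer range the list had 12 of 22 at 4 h, against 13 of 22 at 0 h, where all genes had 41.3% at 4 h and 19.4% at 0 h.

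Chromatin regulators had a similar split, with 11 of 19 at 0 h, 8 at 4 h and 2 at 10 h in the common range. Nsd1, a histone H3 lysine 36 methyltransferase, had 0 h points at -204, 76 and 385 bp and none later. Ncoa2, a nuclear receptor coactivator, had 0 h points at -559 and -289 bp and none later. Dnmt3a, a DNA methyltransferase, had 4 h points at -620 and 580 bp and 0 h points at -984, -350 and 179 bp. Its closest 4 h and 0 h points lay 1569 bp apart, at different starts. Kat6b, a histone acetyltransferase, had 4 h points at 111 and 404 bp and a 0 h point at 401 bp. These distances are from different annotated starts, and its closest 4 h and 0 h points lay 745 bp apart. Ncor1 had a 0 h point at 162 bp, none at 4 h and points at -903, 441 and 770 bp at 10 h. The 10 h points lay at 3 starts and spanned 62277 bp.

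Among members named by a row, interferon response genes had the highest share of any list at 4 h. In the longer range 11 of 13 such members had a promoter point at 4 h (84.62%), against 4 of 13 at 0 h (30.77%). The list holds 41 names, and those with no row at either time are left out. Mx1, Mx2, Cmpk2 and Rsad2 had no row of any class at 0 h and entered only through 4 h rows. The difference between the times is thus partly built in. Over all genes of that range the figures were 41.3% at 4 h and 19.4% at 0 h. In the common range the list had 3 of 7 at 0 h, 6 at 4 h and 2 at 10 h. Beside Mx1, points appeared at 4 h and not at 0 h at Mx2, a second Mx GTPase, with -300, 279 and 348 bp. The Mx2 points lay at 3 starts and spanned 22524 bp. Cmpk2, a mitochondrial nucleotide kinase, had 4 h points at -425, 466 and 596 bp from 3 starts. Rsad2, which encodes viperin, had 4 h points at 87 and 875 bp, and neither gene was occupied at 0 h. Rsad2 also had a promoter point at 10 h, at 905 bp. Zbp1, a sensor of Z-form nucleic acids, the RNA sensor gene Ifih1, Parp9 and Trim25 had 1 4 h point each and none at 0 h. Irf1 had a 4 h point at 122 bp and a 0 h point at 100 bp, from different starts, and the points lay 426 bp apart. Irf9, an interferon regulatory factor, had a 4 h point at -28 bp and a 0 h point at 721 bp. These too are from different starts, and the 4 h point lay 705 bp downstream of the 0 h point. Dhx58 had a 0 h point at -32 bp and none at 4 h.

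The early LPS-induced list had 4 of 18 members in the common range at 0 h, 10 at 4 h and 3 at 10 h. These are 22.22%, 55.56% and 16.67%, against 19.5%, 40.0% and 10.7% of all genes. Genes of the NF-kB family with promoter points included Rel, Relb and, in the longer range, Nfkb2 and Rela. Rela, counted in the TLR4 and NF-kB signalling list, had a 0 h point at 175 bp and none at 4 h. Nfkb1 had a 0 h point at 749 bp and lies beyond the reach of the later tables. Relb had a 4 h point 3 bp from its start and none at 0 h, and Nfkb2 had 4 h points at -337 and 81 bp and 0 h points at -335, -125 and 107 bp. Sod2, mitochondrial superoxide dismutase, had a 4 h point at -89 bp and a 0 h point at 21 bp. The 2 distances are from different starts, and the 4 h point lay 77 bp downstream of the 0 h point. Klf6 had 4 h points at -412 and 680 bp, Myc at -437 and 590 bp and Tnfaip2 at -704 and -31 bp, with none at 0 h. Il10, an anti-inflammatory cytokine, had a 0 h point at 162 bp and none later. In the common range 6 late LPS-induced genes were named by a row. None was occupied at 0 h, 4 were at 4 h and 1 was at 10 h. The 4 were Nos2, Acod1, Arg2 and Mmp14, and the 10 h gene was Edn1, which encodes endothelin-1. These 4 had no row of any class at 0 h and entered the count only through later rows. Their absence at 0 h was thus fixed by how they entered.

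TLR4 and NF-kB signalling genes had 6 of 13 at 0 h, 8 at 4 h and 2 at 10 h. These are 46.15%, 61.54% and 15.38%, against 19.5%, 40.0% and 10.7% of all genes. Peli1 had its 5 points at 4 h only, at -679, -397, -248, 165 and 969 bp. They lay around 2 starts and spanned 44718 bp. Tnip1, a partner of A20, had a 0 h point at 485 bp, 4 h points at -829, 861 and 926 bp and a 10 h point at 195 bp. Its 4 h points lay at 3 starts and spanned 40078 bp. The kinase genes Tbk1, Map2k1 and Mapk8 had 1 point at 4 h and 1 at 0 h each, while Tab1 had a 0 h point at 118 bp and none at 4 h. Pik3r5, a regulatory subunit of PI3-kinase gamma, had 2 points at 0 h, 3 at 4 h and 1 at 10 h.

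The lysosome list had 5 of 20 at 0 h, 12 at 4 h and 4 at 10 h. Beside Psap and Ctsb, Npc2, a cholesterol carrier of the lysosome, had no 0 h point, 4 h points at -687, -50 and 701 bp and a 10 h point at 861 bp. The Npc2 points at 4 h lay around 2 starts and spanned 11126 bp. Atp6v1e1, a subunit of the proton pump, had 4 h points at -667, 3 and 27 bp and none at 0 or 10 h. The Atp6v1e1 points lay around 2 starts and spanned 4116 bp. The protease gene Lgmn had a 4 h point at 268 bp and a 0 h point at 225 bp. Among macrophage identity genes 2 of 9 were occupied at 0 h (22.22%), 4 at 4 h (44.44%) and 2 at 10 h (22.22%), beside the same shares of all genes. Mertk, a receptor for apoptotic cells, had 4 h points at -566, 116 and 759 bp and none at 0 or 10 h. The Mertk points lay around 2 starts and spanned 73040 bp.

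The remaining lists stand beside 19.5%, 40.0% and 10.7% of all genes at 0, 4 and 10 h. Several rest on few members. Mitochondrial respiration had 4 of 14 at 0 h, 8 at 4 h (57.14%) and 1 at 10 h. In the longer range it had 14 of 24 at 4 h (58.33%), against 41.3% of all genes. RNA polymerase II and general transcription genes had 4 of 20 at 0 h, 8 at 4 h and 2 at 10 h, and of these Ell2, an elongation factor, had 3 points at 4 h. Proteasome genes had 3 of 10, 5 and 1, and Psmc6 had a 4 h point at -76 bp and a 0 h point at -103 bp. In the longer range 9 of 13 proteasome genes had a promoter point at 4 h (69.23%), against 41.3% of all genes. At 0 h the figure was 4 of 13 (30.77%), against 19.4%. Ribosomal protein genes had 3 of 9 at 0 h, 4 at 4 h and 3 at 10 h, translation factors 4 of 9, 4 and 1, and housekeeping and glycolysis genes 4 of 9, 4 and 1. Cell cycle genes had 2 of 11 at 0 h, 4 at 4 h and 2 at 10 h, DNA damage response genes 3 of 6, 2 and 2, and cytokines, chemokines and receptors 3 of 8, 3 and 1.

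By chromosome, the share of protein-coding genes with a 0 h promoter point was lowest on X. It was 1.449% there (14 of 966 genes, 0.7945 to 2.42%), and ranged on the autosomes from 4.335% on chromosome 7 (3.491 to 5.314%) to 11.5% on chromosome 11 (9.979 to 13.16%). The X chromosome held 47 named rows of all classes at 0 h, against 524 on chromosome 11. Rows of all classes were thus few on X, as promoter points were.

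Distances depend on which starts are annotated. The following shares use the whole table of each time. Of 1607 points at 0 h whose gene has a RefSeq window, 83.07% lay within 1 kb of a RefSeq start of that gene. The same held for 69.66% of 1450 points at 4 h and 71.36% of 199 at 10 h. Points inside the printed 300 bp window made up 19.29% at 0 h, 14.21% at 4 h and 19.6% at 10 h. The whole tables cover different gene identifiers, so these shares do not compare the times.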

How the data were processed

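ChIP-seq of hnRNP UL1 in RAW 264.7 cells was deposited as 1 peak table for each of 3 times. The deposited tables give, in other units than counts, a peak position (2 bp wide), the annotation class, the gene, transcript strand and bounds, and the distance to the start in bp, all made by the authors. CASAVA 1.8, BWA 0.7.12, MACS2 2.1.0 and GRCm38 (mm10) are named per the submitters' processing notes; their settings and thresholds are not given in the sources used here. Whether input was used in calling is likewise not given.

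From these tables, rows within 1 kb of a start with a gene name were counted with Python 3.11.15, pandas 2.3.3, NumPy 2.4.6 and SciPy 1.17.1. The incomplete last row of the 4 h table (1) was left out, as were promoter rows without a gene name (328 at 0 h, 5 at 4 h, 1 at 10 h). Points were called shared within 500 bp when they named the same gene. The sharing and merging counts were checked on simulated points with known answers. RefSeq tables (GRCm38.p6) gave gene types, start windows and synonyms, and all 987 list names matched. With 1 library per time no test was run.

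The members, 21 gene lists and comparisons were chosen with earlier results of these data known. Genes were named by rule: the 10 with most promoter points at each time, the 10 with the closest points across 3 times and across 0 and 4 h, up to 4 per list, the 10 with most points at 4 h and no 0 h row and the reverse, and 16 fixed genes. Other genes were named after their values were seen. Some genes that the rule selects are not reported here.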

Additional observations from a re-analysis of the deposited data

How the results depend on the processing

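With 1 library per time, no library could be left out. No paired analysis was possible because each time has 1 library and no result comes from a test. Of the alternatives, 68 values for main results stayed within their interval or within 1.5 times of the count and 28 moved; no difference reversed. For single lists, 139 counts stayed and 29 moved. The cause was not tested, beyond what each narrower or wider window implies by construction.

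Restricting the promoter class to 500 bp gave shares of named rows of 29.47% at 0 h, 13.86% at 4 h and 15.9% at 10 h, and 200 bp gave 19.92%, 7.695% and 9.52%, against 34.5%, 20.04% and 20.87% in the report's range. The lower part of the gene range gave 23.44% at 10 h. The upstream share within 200 bp was 30.27% at 0 h and 35.14% at 4 h. Genes at 4 and 10 h numbered 56 with points within 500 bp and 140 within 3 kb, and genes at all 3 times 18 and 72. The 0 h promoters also occupied at 4 h made up 36.29% within 500 bp and 58.25% within 3 kb.

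Sharing within 200 bp was 15.27% for 0 h points near 4 h points, 6.509% for 4 h near 0 h, 15.06% for 10 h near 4 h and 6.695% for 10 h near 0 h; within 1000 bp the first 3 were 33.63%, 15.47% and 36.4%. With a point inside the window, CCAAT was in 23.36% and TATAAA in 7.788% of 0 h windows.

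Alternatives chosen after seeing the data concerned the share of points within 200 bp. Measured to RefSeq starts it was 48.87% at 0 h, with 1 point per gene 45.35% at 4 h, and at genes occupied at both times 43.53% at 4 h, against 50.93% at 0 h. Depth is unknown, so no limit on missing points can be given.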
